A study of Mus musculus with 13 samples.

Results

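*Kcnc1*, *Kcnc2* and *Kcnc4*, genes that encode pore-forming alpha subunits of the Kv3 class of voltage-gated potassium channels, were followed in single proprioceptive sensory neurons (pSNs) of mouse dorsal root ganglia. The 3 genes were found by name among the 50508 genes listed for each plate, and their UMIs (reads collapsed to single molecules) were read in the 586 neurons that the study kept, out of 1248 wells. Adult (older than p56), p12 and p0 neurons came from *PV:Cre*+/-; *Rx3:Flp*+/-; *Ai65*+/- mice, whose tdTomato needs past expression of *PV* and of *Rx3* in the same cell. The paper also saw this tdTomato in some Merkel cell afferents and in afferents that appear to supply the nail. It put 42 kept adult neurons in no numbered cluster, as classes outside proprioceptors or as small clusters. They stay in the adult stage sums. At e14.5 the neurons carried *TrkC:tdTomato*, which also marks sensory neurons that are not proprioceptors, so stage and reporter cannot be told apart between e14.5 and p0. The adult was covered by 5 plates with 208 kept neurons, p12 by 4 plates with 154, p0 by 2 plates with 55 and e14.5 by 2 plates with 169. The p12 plates held 12, 13, 67 and 62 of these neurons in turn, and means over plates weigh each plate equally. The plates are the replicates, numbered in accession order. The adult plates came from 3 experiments, and which plates share an experiment is not given in the sources used here, so n counts plates and not experiments. Ganglia of 6 adult, 4 p12, 6 p0 and 2 e14.5 animals of either sex were used, and which animals a plate holds is not given in the sources used here, so p-values measure the spread between plates. The same 96 well barcodes served all 13 plates.

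Kv3 channels open at depolarized voltages and close fast, which lets neurons repolarize quickly and fire at high rates. They are best known from fast-spiking neurons. Kv3.1 (*Kcnc1*), Kv3.2 (*Kcnc2*) and Kv3.4 (*Kcnc4*) subunits assemble into tetramers, and channels containing Kv3.4 inactivate during a long depolarization. On GRCm38, the build of the files, *Kcnc1* lies on the plus strand of chromosome 7 (46396497 to 46438704), *Kcnc2* on the plus strand of chromosome 10 (112271121 to 112467024) and *Kcnc4* on the minus strand of chromosome 3 (107438303 to 107459552). The 250 bases before a RefSeq start (GRCm38.p6) are printed because *Kcnc1* and *Kcnc4* rose over the same interval whereas *Kcnc2* stayed near 0. The RefSeq start lies 29 bases before the start given above for *Kcnc1*, 1104 bases before it for *Kcnc2* and 654 bases inside the gene for *Kcnc4*, so the annotations differ in where these genes begin. Capitals mark a GC box (GGGCGG, on either strand) or the short core of a cAMP response element (TGACG, on either strand).
Kcnc1, chr7:46396218-46396467, plus strand: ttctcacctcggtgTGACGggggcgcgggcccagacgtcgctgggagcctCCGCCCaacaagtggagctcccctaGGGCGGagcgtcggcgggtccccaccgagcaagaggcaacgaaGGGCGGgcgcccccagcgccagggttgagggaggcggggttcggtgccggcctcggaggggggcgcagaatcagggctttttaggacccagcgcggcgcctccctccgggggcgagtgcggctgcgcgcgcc
Kcnc4, chr3:107458899-107459148, minus strand: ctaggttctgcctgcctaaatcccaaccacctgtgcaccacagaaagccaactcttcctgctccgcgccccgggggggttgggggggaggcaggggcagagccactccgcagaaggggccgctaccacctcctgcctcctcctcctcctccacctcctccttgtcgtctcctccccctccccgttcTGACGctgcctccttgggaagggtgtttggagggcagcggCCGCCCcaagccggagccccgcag
Kcnc2, chr10:112269767-112270016, plus strand: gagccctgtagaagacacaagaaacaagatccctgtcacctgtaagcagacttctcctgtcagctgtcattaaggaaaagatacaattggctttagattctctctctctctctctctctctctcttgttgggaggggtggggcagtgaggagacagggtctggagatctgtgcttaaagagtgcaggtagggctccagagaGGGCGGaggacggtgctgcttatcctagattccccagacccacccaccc
The *Kcnc1* window held 74.4% G or C, and its 30 CG dinucleotides were more than in 94.4% of 27025 promoters of the same length. The *Kcnc4* window held 68% G or C and 12 CG dinucleotides, and that of *Kcnc2* 52.4% and 2. Over all promoters the medians were 52% and 6. *Kcnc1* had 3 GC boxes and *Kcnc2* and *Kcnc4* had 1 each, a motif found in 33.0% of the promoters. *Kcnc1* and *Kcnc4* had 1 such core each and *Kcnc2* none, where 17.8% of the promoters held it. A TATA box (TATAAA) was found in none of the 3 windows and in 12.98% of the promoters. These matches describe the letters only.

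Markers of proprioceptors were found on every plate. Summed CPM (UMIs of a gene per 1000000 UMIs of the neuron) of *Pvalb*, *Runx3*, *Ntrk3*, *Etv1* and *Whrn* ranged from 1668 to 1708 per plate at e14.5, from 4986 to 5060 at p0, from 4076 to 4371 at p12 and from 2761 to 3315 in the adult, with *Whrn* at 1.11 and 1.34 CPM at e14.5. Within e14.5 the label did not hold evenly. The proprioceptor list summed to 1727 to 2113 CPM in clusters 1 and 2 and to 688 to 738 CPM in clusters 3 and 4, which hold 34 and 6 neurons. *Etv1* was at 736 to 860 CPM in the former and at 43.5 to 128 CPM in the latter, whereas *Ntrk3* was at 271 to 348 CPM and at 275 to 312 CPM. The mechanoreceptor list summed to 59.4 to 88.0 CPM in clusters 1 and 2 and to 259 to 495 CPM in clusters 3 and 4. Of its 4 genes only *Maf* was higher in clusters 3 and 4 without overlap (217 to 438 CPM against 5.42 to 36.3 CPM), and *Ret* was lower (0 to 3.65 CPM against 5.42 to 27.2 CPM). Summed glial markers ran from 85.5 to 105 CPM at e14.5, from 563 to 672 at p0, from 224 to 614 at p12 and from 326 to 877 in the adult. Nociceptor markers reached at most 50.5 CPM on any plate, and markers of cutaneous mechanoreceptors lay between 41.1 and 229 CPM. Plate means of depth ran from 9669 UMIs per neuron at e14.5 to 65165 at p12. Adult replicates 1 and 2 differed from replicates 3 to 5 within the same clusters in 22.8% of 6471 tested genes. *Kcnc1* (log2 difference -0.25, standard error 0.13) and *Kcnc4* (0.07, standard error 0.25) were not among them, with edgeR adjusted p = 0.186 and 0.895.

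*Kcnc1* rose after birth and again after p12, and *Kcnc4* rose between p0 and p12 with no later change called, whereas *Kcnc2* gave 8 UMIs over all stages. The plate means of *Kcnc1* were 12.3 and 12.6 CPM at e14.5, 19.0 and 24.5 CPM at p0, and 120, 151, 103 and 77.6 CPM at p12. In the adult they were 230, 253, 307, 242 and 254 CPM. No plate of one stage overlapped with a plate of another. *Kcnc1* was 6.18-fold higher at p12 than at p0 (log2 difference 2.63, standard error 0.24, edgeR adjusted p = 8.55e-06), where 18.1% of 11939 tested genes were called. It was 2.07-fold higher in the adult than at p12 (log2 difference 1.05, standard error 0.15, adjusted p = 0.000665, edgeR), in a comparison that called 14.1% of the genes. Between e14.5 and p0 the difference of 0.83 on the log2 scale (standard error 0.31) was not called (adjusted p = 0.0712, edgeR), in a comparison that called 27.8%. This last call was gained with all wells of at least 2000 genes (adjusted p = 0.00374, edgeR) and with e14.5 clusters 1 and 2 alone (0.0482).

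The plate means of *Kcnc4* were 3.26 and 5.94 CPM at e14.5 and 4.05 and 4.49 CPM at p0, which overlapped. At p12 they were 49.1, 32.9, 50.1 and 58.1 CPM, and in the adult 47.2, 54.6, 56.4, 49.3 and 55.4 CPM. All p12 plates lay above the p0 plates, and the adult plates lay within the range of the p12 plates. The rise from p0 to p12 was 11.6-fold (log2 difference 3.53, standard error 0.38, edgeR adjusted p = 2.71e-05), from 9 *Kcnc4* UMIs in all p0 neurons to 206 at p12. From p12 to adult the difference was -0.01 (standard error 0.20, adjusted p = 0.982, edgeR), and from e14.5 to p0 it was -0.47 (standard error 0.55, adjusted p = 0.628, edgeR). Summed glial markers also differed between these stages, by the ranges given above, and their part in both rises was not tested. In these sums per plate, a change in the mix of neurons and a change within each neuron cannot be told apart.

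**Figure D1:**
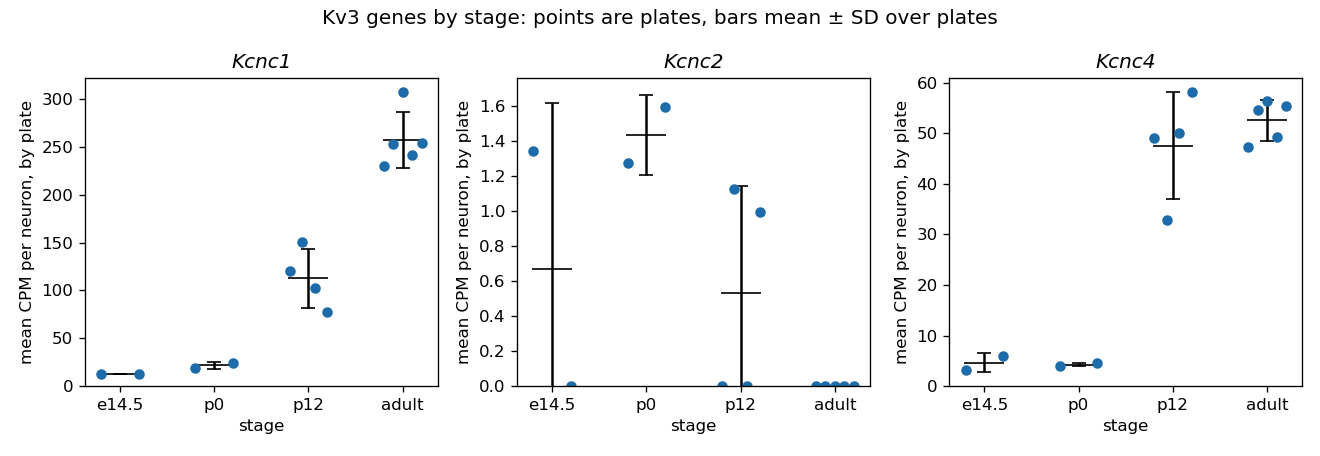
Mean CPM per neuron of *Kcnc1*, *Kcnc2* and *Kcnc4* on each plate (points) against stage, with the mean ± SD over plates, each panel on its own linear axis. *Kcnc1* climbs from 12.5 CPM at e14.5 to 257 CPM in the adult, *Kcnc4* steps up between p0 and p12, and *Kcnc2* stays at or below 1.59 CPM.

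The share of neurons with a *Kcnc1* UMI was 13.05% ± 0.401 at e14.5, 55.2% ± 13.2 at p0, 80.7% ± 14.1 at p12 and 91.0% ± 3.91 in the adult (mean ± SD over plates). For *Kcnc4* it was 5.86% ± 0.742, 14.3% ± 2.57, 73.1% ± 7.19 and 75.5% ± 9.27 at the same stages. Neurons at e14.5 were shallower, with a mean of 11174 UMIs against 44511 in the adult. After each neuron was thinned to 7000 UMIs, which left out 18 neurons at e14.5 and 2 at p12, *Kcnc1* was found in 8.60%, 18.5%, 53.2% and 72.7% from e14.5 to adult. *Kcnc4* was then found in 4.61%, 2.08%, 24.7% and 30.1%, so its order between e14.5 and p0 was not kept. The p0 value averages 0% of 31 neurons and 4.17% of 24 neurons on its plates, from a single random thinning. Of 30 adult wells with UMIs of fewer than 2000 genes, 9 also held a *Kcnc1* UMI, at a pooled level of 305 CPM against 266 CPM in the kept neurons.

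*Kcnc2* gave 8 UMIs in the 586 kept neurons: 1 at e14.5, 5 in 3 neurons at p0, 2 at p12 and 0 in the adult. No UMI in 208 adult neurons allows up to 1.44% of neurons with a UMI and a level of up to 0.324 CPM (3 counts over all adult neurons), counting error only. It sets no limit on the share of neurons that express the gene below capture. A 0 in these tables can also be a gene that the counting missed, since *Uchl1*, a gene known to be abundant in sensory neurons, was listed at 0 UMIs in the kept neurons of all 4 stages. *Kcnc2* passed the filter on low counts in none of the comparisons, so it was not tested. In the wells that the study left out, with UMIs of at least 2000 genes, *Kcnc2* gave 2 UMIs in 92 wells at p0, 4 in 216 wells at p12 and 2 in 242 adult wells.

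The question of the adult data is how the pSN subtypes differ. The study assigned cluster 1 to group Ia afferents of muscle spindles, cluster 5 to group Ib afferents of Golgi tendon organs, and clusters 2 to 4, presumptively, to group II spindle afferents. It had found these clusters in the same neurons, so the tests describe how far plates repeat a difference. *Kcnc1* was high in clusters 1, 2 and 3, lower in cluster 5 and lowest of the numbered clusters in cluster 4. *Kcnc4* had another order, with cluster 1 at the bottom. Both differed across the clusters, with adjusted p = 0.00282 for *Kcnc1* and 0.00013 for *Kcnc4* (edgeR), where 9.67% of 7370 tested genes were called. Thinning to 7000 UMIs (adjusted p = 0.124), leaving out adult replicate 2 (0.0532) or keeping replicates 3 to 5 alone (0.365) ended the call of *Kcnc1*. Clusters 2 and 4 have no sum on replicates 3 to 5. The call of *Kcnc4* was kept in all 13 alternatives that could test it.

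In cluster 1 (51 neurons) *Kcnc1* averaged 347, 379, 398, 282 and 387 CPM in replicates 1 to 5, and all 51 neurons had a UMI. In cluster 5 (31 neurons) it averaged 181, 181, 258, 276 and 272 CPM, below cluster 1 on each plate. The difference was 0.59 on the log2 scale, a 1.504-fold higher level in cluster 1 (standard error 0.17), and missed the threshold with adjusted p = 0.0557 (edgeR, 4.76% of genes called). With plate as a block, which compares the clusters within plates, adjusted p was 0.00597 with the same size of difference, and 712 genes were called in place of 351. The difference was 0.98 in replicates 1 and 2 alone (adjusted p = 0.00448) and 0.33 in replicates 3 to 5 alone (adjusted p = 0.316, edgeR). Whether the 2 sets of plates differ in this contrast was not tested.

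*Kcnc1* in cluster 2 averaged 431 and 320 CPM in replicates 1 and 2, the plates that hold this cluster. In cluster 4 it averaged 150 and 115 CPM on the same plates, and 24 of 28 neurons had a UMI against 15 of 15 in cluster 2. The median depth was 20138 UMIs in cluster 4 and 31306 UMIs in cluster 2. The difference of cluster 4 from cluster 2 was -1.45 on the log2 scale (standard error 0.30), a 2.74-fold higher level in cluster 2, with adjusted p = 0.0544 (edgeR). Only 0.136% of genes were called in this comparison. *Kcnc1* passed with DESeq2 (adjusted p = 0.00779), without a filter (0.00555), with sums of at least 4 neurons (0.0499), with plate as a block (0.0111) and on replicates 1 and 2 alone (0.00441). It did not pass in the other 8 of 13 alternatives, among them thinning to 7000 UMIs (0.433, log2 difference -1.17) and each plate left out (0.0802 to 0.593). Cluster 3 averaged 340, 333 and 336 CPM in replicates 3, 4 and 5, and 657 CPM in the 2 neurons of replicate 2. Its difference from clusters 1 and 5 was 0.35 (standard error 0.16, adjusted p = 0.282, edgeR, 2.51% of genes called).

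**Figure D2:**
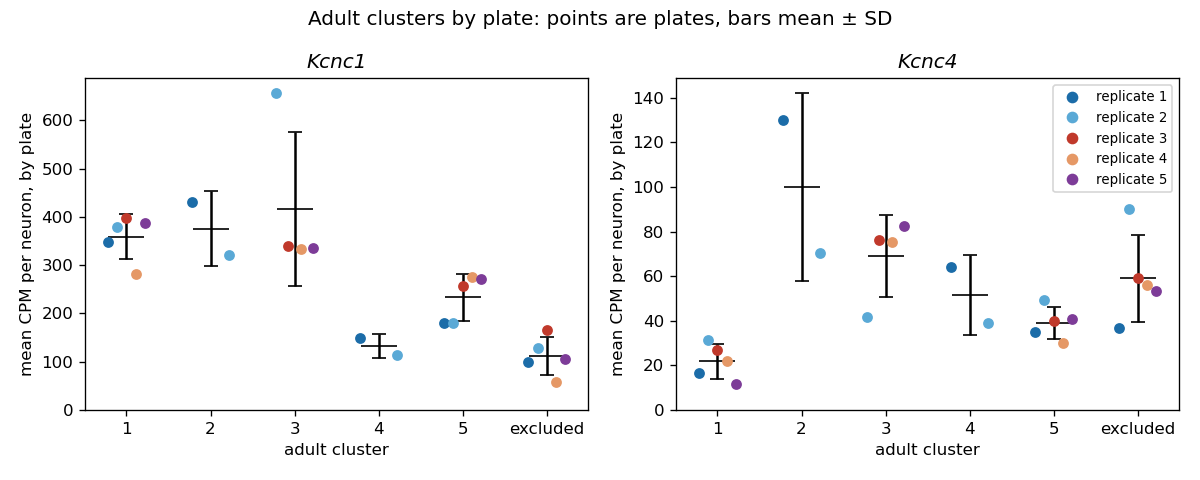
Mean CPM per neuron of *Kcnc1* (left) and *Kcnc4* (right) in each adult cluster, with 1 point for each plate that holds at least 2 of its neurons, colored by replicate, and the mean ± SD over plates. *Kcnc1* is lowest in cluster 4 among the numbered clusters, and *Kcnc4* is lowest in cluster 1.

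*Kcnc4* averaged 16.8, 31.6, 27.0, 22.2 and 11.5 CPM in cluster 1 and 35.0, 49.2, 39.8, 30.2 and 40.7 CPM in cluster 5, in replicates 1 to 5. It was lower in cluster 1 than in cluster 5 on each of the 5 plates, by 0.77 on the log2 scale (standard error 0.25), which did not pass the test (adjusted p = 0.0937, edgeR). Cluster 2 averaged 130 and 70.4 CPM, and cluster 4 averaged 64.2 and 38.9 CPM. Cluster 3 averaged 41.7, 76.4, 75.2 and 82.6 CPM in replicates 2 to 5. The highest sum of cluster 1 lay above the lowest of cluster 5, whereas all sums of clusters 2, 3 and 4 lay above those of cluster 1.

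Together, clusters 1 and 5 had a 2.62-fold lower level of *Kcnc4* than clusters 2 to 4 (log2 difference -1.39, standard error 0.18, adjusted p = 6.13e-05, edgeR, 5.63% of genes called). The same comparison gave 0.07 for *Kcnc1* (standard error 0.14, adjusted p = 0.866, edgeR). Because clusters 2 and 4 lie on replicates 1 and 2 and cluster 3 mostly on replicates 3 to 5, the 2 sides were also taken apart. Both comparisons still took clusters 1 and 5 over all adult plates, so they do not fully separate cluster from plate set. *Kcnc4* was 2.64-fold higher in cluster 3 than in clusters 1 and 5 (log2 difference 1.40, standard error 0.21, adjusted p = 0.000516, edgeR). It was 2.61-fold higher in clusters 2 and 4 than in clusters 1 and 5 (log2 difference 1.39, standard error 0.22, adjusted p = 0.000775, edgeR, 6.15% of genes called). Without adult replicate 1 the last difference was 0.85 and its adjusted p 0.225. *Kcnc1* differed by -0.27 in that comparison (standard error 0.17, adjusted p = 0.368, edgeR). Cluster 4 differed from cluster 2 by -0.53 for *Kcnc4* (standard error 0.37, adjusted p = 0.936, edgeR).

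Ordered by mean, *Kcnc1* ran from cluster 3 (417 ± 160 CPM, n = 4 plates) through cluster 2 (376 ± 78.4, n = 2) and cluster 1 (359 ± 46.9, n = 5) to cluster 5 (234 ± 48.5, n = 5) and cluster 4 (133 ± 24.8, n = 2). The place of cluster 3 rests on the 2 neurons of replicate 2, and its median plate was at 338 CPM against 376 CPM in cluster 2 and 379 CPM in cluster 1. These 3 clusters overlapped in their plates, and clusters 5 and 4 overlapped with no other. *Kcnc4* ran from cluster 2 (100 ± 42.1 CPM) through cluster 3 (69.0 ± 18.5) and cluster 4 (51.6 ± 17.9) to cluster 5 (39.0 ± 7.10) and cluster 1 (21.8 ± 7.98), each overlapping with its neighbor. The 42 adult neurons that the study put in no numbered cluster averaged 98.8, 128, 166, 58.1 and 106 CPM of *Kcnc1*, below clusters 1, 2, 3 and 5 on each plate that holds them. Their *Kcnc4* averaged between 36.7 and 90.3 CPM. Summed glial markers ranged over plates from 177 to 687 CPM in cluster 1, from 110 to 666 in cluster 5, from 323 to 1095 in cluster 3, from 318 to 725 in cluster 2 and from 251 to 443 in cluster 4. Summed markers of cutaneous mechanoreceptors ran from 232 to 529 CPM in cluster 1, against 45.6 to 268 CPM in the others, and these ranges overlapped. Of this list, *Maf* alone was at 189 to 448 CPM in cluster 1. Fibroblast markers were at 47.8 to 99.2 CPM in cluster 5 against at most 51.2 CPM elsewhere. The part of these lists in the differences was not tested.

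**Figure D3:**
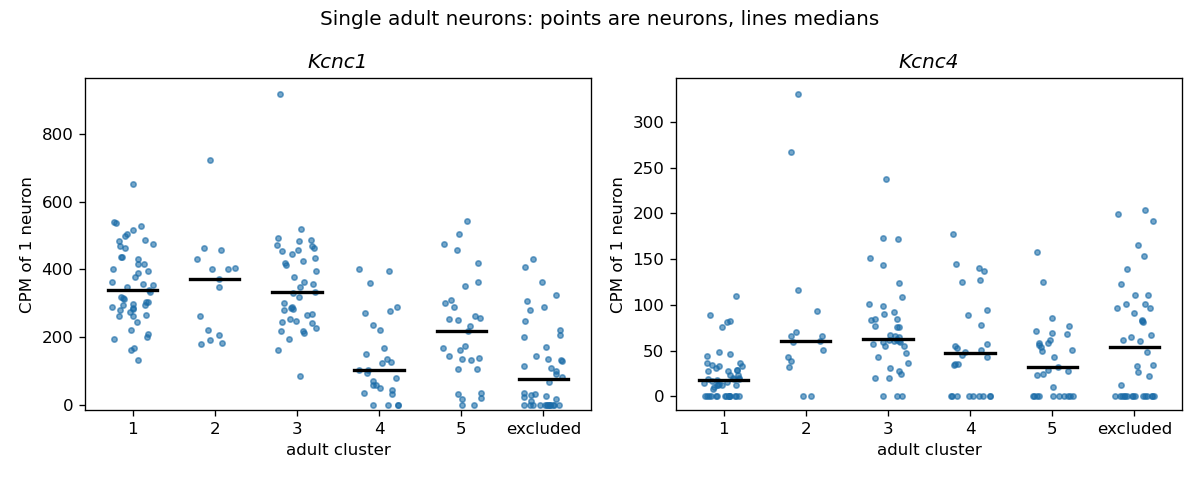
CPM of *Kcnc1* (left) and *Kcnc4* (right) in each of the 208 adult neurons (points) by cluster, with the median as a line. The medians of *Kcnc1* are 340 CPM in cluster 1, 218 CPM in cluster 5 and 103 CPM in cluster 4, and every neuron of clusters 1 to 3 lies above 0.

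Single neurons of 1 cluster differed widely. *Kcnc1* ran from 131 to 652 CPM over the neurons of cluster 1 and from 84.6 to 918 CPM in cluster 3, with medians of 340 and 332 CPM. In cluster 4 the median was 103 CPM and the upper quartile 225 CPM. *Kcnc4* had a median of 18.1 CPM in cluster 1, where 36 of 51 neurons had a UMI, and of 62.9 CPM in cluster 3, where 38 of 41 had one. UMIs of both genes were found in 0.667% ± 0.943 of e14.5 neurons, 12.2% ± 5.51 of p0 neurons, 58.2% ± 12.9 of p12 neurons and 72.6% ± 11.3 of adult neurons (mean ± SD over plates). Across the adult neurons of 1 plate, Pearson's r of log10(CPM + 1) between both genes was 0.13, 0.25, 0.59, 0.61 and 0.25 in replicates 1 to 5. At p12 it was -0.27, -0.06, -0.26 and 0.03. These values pool clusters that differ in both genes. Within adult cluster 1 it was 0.43, 0.38, -0.26 and 0.13 in replicates 1 to 4, and within cluster 5 it was 0.88, 0.57 and 0.57 in replicates 1, 2 and 4, over 7 to 15 neurons each. These correlations are across neurons that share a library and differ in depth.

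At p12 the 2 genes also had different patterns, and each differed across the clusters, with adjusted p = 2.63e-05 for *Kcnc1* and 0.00167 for *Kcnc4* (edgeR, 31.5% of 6209 tested genes called). Clusters 2 and 3 lie on replicates 1 and 2 and clusters 1, 4 and 5 on replicates 3 and 4, so in this test over all 5 clusters cluster and plate set cannot be told apart. The tests of pairs below stay within the same plates. The study found the p12 clusters in the same neurons too, so all these tests describe how far plates repeat a difference. The study clustered p12 neurons apart from adult neurons, so equal cluster numbers do not name the same class. *Maf*, a transcription factor of the mechanoreceptor list, for example, lay between 0 and 2.36 CPM in p12 cluster 1 and between 189 and 448 CPM in adult cluster 1. *Kcnc1* in cluster 1 averaged 57.1 and 41.0 CPM in replicates 3 and 4, and in cluster 4 it averaged 107 and 144 CPM. The difference was -1.40 on the log2 scale (standard error 0.31), a 2.64-fold higher level in cluster 4 (adjusted p = 0.0241, edgeR, 0.966% of genes called). It missed the threshold with DESeq2 (adjusted p = 0.051), and with 1 plate left out, which leaves 1 sum on each side that is assumed to vary like the others (0.23 without p12 replicate 3 and 0.999 without p12 replicate 4). The log2 differences were then -1.40, -1.76 and -1.01. *Kcnc4* was at 67.1 and 65.6 CPM in cluster 1 and at 46.2 and 44.0 CPM in cluster 4, and this difference of 0.75 was not called (standard error 0.30, adjusted p = 0.358, edgeR).

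The next comparisons were chosen after the values were seen. Cluster 5, with 8 neurons, had 244 and 195 CPM of *Kcnc1* on the same 2 plates, 2.86-fold above clusters 1 and 4 (log2 difference 1.52, standard error 0.28, adjusted p = 0.000801, edgeR, 6.88% of genes called). Its *Kcnc4* was at 13.3 and 39.0 CPM, a difference of -1.58 (standard error 0.49, adjusted p = 0.0485, edgeR) that was not called with DESeq2 (0.308), without a filter (0.0665), without p12 replicate 3 (0.843) or without p12 replicate 4 (0.0722), with log2 differences of -1.51, -1.67, -0.63 and -2.15. For *Kcnc1*, thinning (adjusted p = 0.323) and leaving out p12 replicate 3 (0.595) ended the call, with log2 differences of 1.17 and 1.05. Cluster 2, also with 8 neurons, had 165 and 331 CPM of *Kcnc1* in replicates 1 and 2, and cluster 3 had 88.1 and 97.1 CPM. The difference was 1.25 (standard error 0.29, adjusted p = 0.012, edgeR, 3.91% of genes called). Thinning (0.945), sums of at least 4 neurons (0.274) and leaving out p12 replicate 2 (0.131) ended this call, with log2 differences of 0.25, 0.76 and 0.97. *Kcnc4* was at 17.4 and 16.4 CPM in cluster 2 and at 71.7 and 37.9 CPM in cluster 3, which was not called (log2 difference -1.51, standard error 0.48, adjusted p = 0.0859, edgeR). Summed markers of cutaneous mechanoreceptors were at 342 and 373 CPM in cluster 2 and at 229 and 246 CPM in cluster 5, against at most 123 CPM in the other clusters, and their part in these differences was not tested. These sums are not split by gene here.

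**Figure D4:**
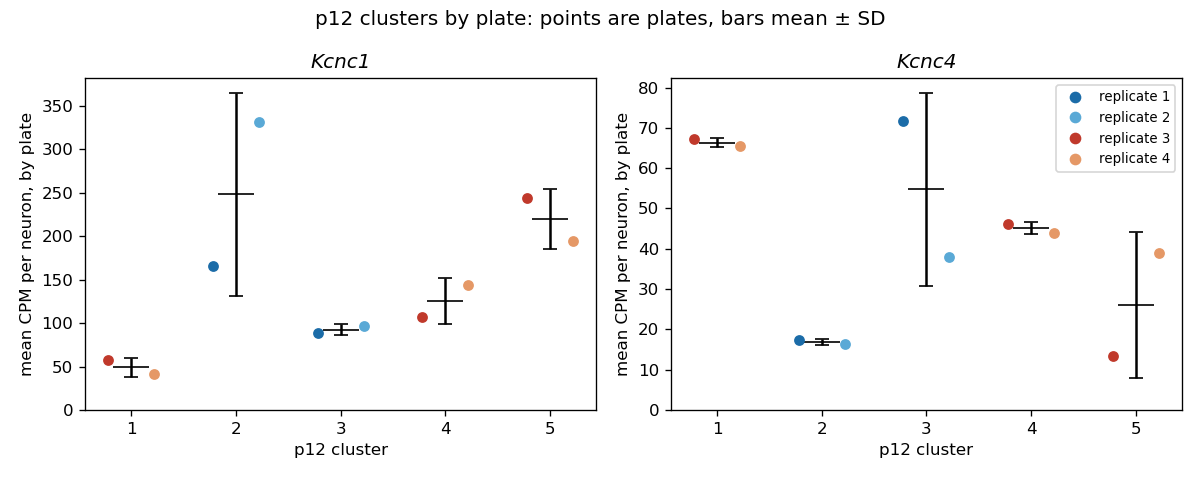
Mean CPM per neuron of *Kcnc1* (left) and *Kcnc4* (right) in each p12 cluster, with 1 point for each plate, colored by replicate, and the mean ± SD over plates. Clusters 2 and 3 lie on replicates 1 and 2, where cluster 2 has the higher *Kcnc1*, and clusters 1, 4 and 5 lie on replicates 3 and 4, where cluster 1 has the lowest *Kcnc1* and cluster 5 the highest.

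Before p12 the counts were too low for a test between clusters, since neither gene passed the filter. At e14.5 *Kcnc1* averaged 15.5 ± 7.59 CPM in cluster 1, 10.3 ± 3.23 in cluster 2 and 14.6 ± 1.07 in cluster 3 (n = 2 plates), from 23 UMIs in all. At p0 it averaged 27.4 ± 6.32 CPM in cluster 1, 14.7 ± 10.5 in cluster 2 and 9.96 ± 14.1 in cluster 3, from 50 UMIs. All 9 *Kcnc4* UMIs at p0 were in cluster 1, with 35 neurons. No UMI in the 12 neurons of cluster 2 allows up to 4.96 CPM, and none in the 8 neurons of cluster 3 up to 12.8 CPM.

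A measure that needs no scaling is the share of *Kcnc4* among the UMIs of *Kcnc1* and *Kcnc4* of the same neurons. UMIs were pooled over neurons, so deeper neurons weigh more in it and it can move with depth. It compares samples, and says nothing about which gene is the more abundant, because genes differ in how well they are captured. This measure was added after the values were seen. The share was 22.3%, 15.3%, 26.5% and 34.9% on the p12 plates and 12.8%, 13.7%, 13.1%, 13.9% and 15.8% on the adult plates. Its mean was 24.8% ± 8.19 (SD, n = 4) and 13.9% ± 1.17 (SD, n = 5). A rise of *Kcnc1* with no called change of *Kcnc4* lowers this share by arithmetic, so the difference restates the stage results above and is no separate evidence. An exact two-sided permutation test of plates gave p = 0.0317, and the smallest possible p is 0.0159. Replicate 2 at p12 lay inside the adult range. Leaving out 1 plate gave p between 0.0286 and 0.0714, and 7 of the 9 plates ended the call when left out.

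In the adult the share was 4.33%, 7.23%, 5.50%, 6.58% and 3.03% in cluster 1 and 15.5%, 18.3%, 11.6%, 9.59% and 13.5% in cluster 5, higher in cluster 5 on all 5 plates without overlap. It was 29.7% and 26.9% in cluster 4 and 20.3% and 16.5% in cluster 2. In cluster 3 it was 10.3%, 17.0%, 17.1% and 20.0% in replicates 2 to 5. At p12 it was 56.8% and 61.3% in cluster 1 and 28.6% and 20.7% in cluster 4 of the same plates, and 9.21% and 4.48% in cluster 2. The 95% Clopper-Pearson intervals of the pooled shares, for counting error only, were 4.40% to 7.14% in adult cluster 1 and 10.4% to 16.7% in adult cluster 5. In the p12 clusters, which are a separate clustering, they were 50.3% to 68.6% in cluster 1 and 3.40% to 12.5% in cluster 2.

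**Figure D5:**
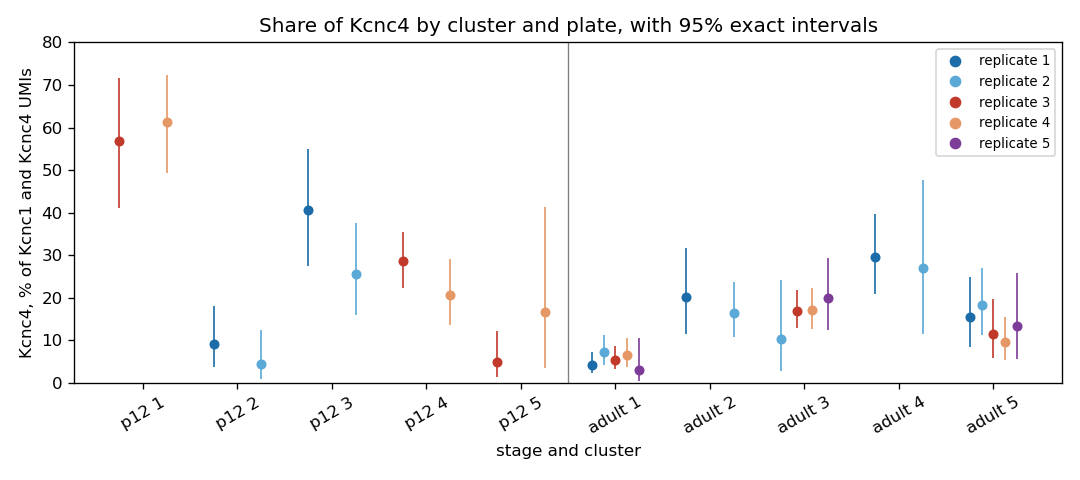
UMIs of *Kcnc4* as a percentage of the UMIs of *Kcnc1* and *Kcnc4* in each cluster and plate at p12 and in the adult (points, colored by replicate), with 95% exact binomial intervals. Points with fewer than 10 UMIs of both genes are not drawn. Adult cluster 1 stays at or below 7.23% on all 5 plates and below cluster 5 on each, and clusters of the same number at p12 and in the adult are not the same class.

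Other channel genes changed over the same intervals. Of 30 other voltage-gated potassium channel alpha subunits, 15 passed the filter between stages. From e14.5 to p0, where 27.8% of all tested genes were called, 7 rose and 0 fell, with a median log2 difference of 0.86 against 0.01 over all tested genes. *Kcnq3*, a subunit of the M-current, rose by 5.12 (adjusted p = 0.00038, edgeR) and *Kcns1*, a silent subunit, by 2.90 (2.59e-05). From p0 to p12, where 18.1% were called, 5 rose and 1 fell, with a median of 0.65 against 0.02. *Kcna2* and *Kcna1*, Kv1 subunits of the axon membrane beside the node of Ranvier, rose by 2.46 (adjusted p = 0.000235) and 2.18 (0.000131, edgeR), and *Kcnh6* fell by 2.07 (0.0207). From p12 to adult, where 14.1% were called, 4 rose and 4 fell, with a median of 0.21 against 0.04. *Kcnh7* rose by 0.94 and *Kcnd1*, a Kv4 subunit, by 0.89, whereas *Kcnh8* fell by 2.03 and the Kv1 subunit *Kcna6* by 1.40.

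Of 21 genes associated with fast-spiking neurons, 20 were tested between stages. From e14.5 to p0, where 27.8% of all tested genes were called, 15 rose and 1 fell, with a median log2 difference of 1.93 against 0.01 over all genes. *Vamp1*, of the vesicle release machinery, rose by 4.52, whereas *Scn2b*, a sodium channel beta subunit, fell by 1.504. From p0 to p12, where 18.1% of all genes were called, 10 rose and 0 fell (median 0.82 against 0.02), led by *Scn4b*, another beta subunit, with 3.67 and *Kcna2* with 2.46. From p12 to adult, where 14.1% were called, 2 rose and 2 fell (median 0.32 against 0.04). *Scn8a*, a sodium channel alpha subunit, rose by 0.53, and *Scn2b* fell by 5.40 and *Pvalb* by 0.66. Of 16 Kv3 partners and modulators, 11 were tested, and 3, 3 and 1 were called in the 3 steps in turn, where 27.8%, 18.1% and 14.1% of all tested genes were called. The first and the last of these counts lie near or below the share of all genes. *Prkcb*, a protein kinase C, rose by 1.54 from e14.5 to p0 and *Prkcd*, another, fell by 2.22 and *Ank3*, the ankyrin of the axon initial segment, by 1.19. From p0 to p12 the kinesins *Kif5b* and *Kif5a* rose by 0.84 and 0.72 and *Prkcd* fell by 2.17. *Kif5b* rose again by 0.92 from p12 to adult. The medians of this list were 0.17, 0.15 and 0.05 in the 3 steps.

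In the adult, 12 of the other alpha subunits were tested. In clusters 1 and 5 against clusters 2 to 4, where 5.63% of all genes were called, *Kcnq3* was higher by 2.07 (adjusted p = 0.000358, edgeR) and *Kcna1* by 0.96 (0.000128), the opposite side to *Kcnc4*, with a median log2 difference of 0.12 against 0.03 over all tested genes. *Prkce* and *Prkcb*, the 2 called of 10 partners and modulators, had differences of -0.63 and -0.57. Within clusters 1 and 5, *Prkce* was also 0.47 higher (log2) in replicates 1 and 2 than in replicates 3 to 5. Its adjusted p was 0.0267 (edgeR). Clusters 2 and 4 lie on replicates 1 and 2 only, and the part of the plates was not tested. In cluster 3 against clusters 1 and 5, 0 of the 10 were called. Of 19 fast-spiking neuron genes 4 were higher in clusters 1 and 5 than in clusters 2 to 4, among them *Kcna1* and *Nefl* (0.86), a neurofilament. Between clusters 1 and 5, where 4.76% were called, *Kcnd2* (-3.59) and *Kcnd1* (-0.82), A-type Kv4 subunits, were lower in cluster 1, as *Scn4b* was (-1.52). *Prkca* (1.75), *Prkcb* (1.40) and the nuclear receptor *Esrrg* (1.08) were higher in cluster 1.

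The genes most like each member were ranked by Pearson's r of log2(CPM + 1) over the summed profiles of clusters and plates. Over 41 sums of all stages, *Kcnc1* was closest to *Maneal* (0.92), *Zfp365* (0.91), *Sphk1* (0.91), *Cacna2d3* (0.90), a calcium channel subunit, and *Dynll2* (0.90). *Kcnc4* was closest to *Cstad* (0.86), *Ifi27* (0.86), *Wdr72* (0.85), *Cd59a* (0.85) and *Akap12* (0.84), and to *Kcnc1* with 0.77. Over the 18 adult sums *Kcnc1* and *Kcnc4* had r = 0.03 with each other. *Kcnc1* was then closest to *Dlst* (0.87), *Tsc22d1* (0.87), *Ivd* (0.87), *Zyx* (0.86) and *Fam65b* (0.85). *Kcnc4* was closest to *Celf4* (0.86), an RNA-binding protein, *RP23-240G3.2* (0.86), *Adcy8* (0.83), an adenylyl cyclase, *Kcnip2* (0.81), a Kv4 partner, and *Slc29a4* (0.80). Sums of the same plate share a library, and these correlations are descriptions. *Kcnip2* averaged 41.4 CPM in cluster 1 and 61.2 CPM in cluster 5 against 141, 143 and 129 CPM in clusters 2, 3 and 4, and *Celf4* averaged 75.2 and 143 CPM against 357, 226 and 423 CPM.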

How the data were processed

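Single tdTomato-positive neurons were sorted into plates and their RNA was barcoded by well and molecule. The authors aligned the reads with STAR to GRCm38 (mm10) and deposited a table of UMI counts per gene and well for each plate, which are raw and not normalized, with an annotation of the neurons they kept and their clusters. The members and gene lists were chosen with earlier results of these data known.

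Counts were summed per plate (stages) or per cluster and plate (at least 2 neurons). Sums were tested with edgeR 4.0.16 (R 4.3.3; quasi-likelihood F-test, TMM scaling, filterByExpr, Benjamini-Hochberg over all tested genes, called under 0.05), and DESeq2 1.42.0 was an alternative. CPM is the mean over neurons of UMIs per 1000000, and errors are SD over plates. Clusters of 1 adult plate share a library, which is what the block pairs. Stage replicate numbers follow accession order and pair nothing. Neurons were thinned once to 7000 UMIs (seed 7). The stage and adult cluster fits were also run on simulated counts, and the outcome is not reported here. Depth was 9669 to 65165 UMIs per neuron (plate means), and intervals cover counting error only. Other alternatives were no filter, sums of at least 4 neurons, subsets of adult plates, other sets of wells and leaving out each plate. From each list the called genes were named, at most 2 per direction, by size of difference, and for likeness the 5 closest genes. Predicted genes were skipped, and some genes that the rule names are not reported here.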

Additional observations from a re-analysis of the deposited data

Results flagged for a closer look

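In adult cluster 3, *Kcnc1* averaged 657 CPM in replicate 2 against 333 to 340 CPM in the other 3 plates, a sample far from the others. That value rests on 2 neurons. In all, 14 groups were examined in this way, of which chance marks about 1 in 20.

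*Kcnc2* gave 4 UMIs, in 3 wells, among the 216 p12 wells that the study left out and that hold UMIs of at least 2000 genes. These wells entered only the alternative that takes all wells with at least 2000 genes, and *Kcnc2* was at 0.401 CPM over their 9979688 UMIs, against 0.424 CPM in the kept p12 neurons.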

How the results depend on the processing

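Over 31 tests, 379 of 425 alternatives kept the direction and the side of the threshold and 13 turned the direction. The rises from p0 to p12 of *Kcnc1* (log2 1.90 to 2.91) and *Kcnc4* (3.33 to 3.92) and of *Kcnc1* from p12 to adult (0.98 to 1.27) were called in all 21 alternatives each. Where a plate left out leaves 1 sum on a side, that sum is assumed to vary like the others. The causes of the changes below were not tested. All values are adjusted p, from edgeR unless DESeq2 is named.

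*Kcnc1* in adult cluster 1 against 5 gave 0.0382 without a filter, 0.00597 with plate as a replicate block and 0.00448 in replicates 1 and 2. In cluster 4 against 2 it gave 0.00779 with DESeq2, 0.00555 without a filter, 0.0499 with at least 4 neurons, 0.0111 with the block and 0.00441 in replicates 1 and 2, and the other 8 alternatives did not pass (thinning 0.433, plates left out 0.0802 to 0.593). The block changed no other call. In clusters 1 and 5 against 2 to 4 its direction turned with thinning (0.879), in replicates 3 to 5 (0.69) and without replicate 2 (plates left out in turn gave 0.39 to 0.998). Across the adult clusters it gave 0.124 with thinning, 0.365 in replicates 3 to 5 and 0.00629 to 0.0532 with plates left out. From e14.5 to p0 it gave 0.0482 with e14.5 clusters 1 and 2 and 0.00374 with all wells. At p12, cluster 1 against 4 gave 0.051 with DESeq2 and 0.000553 to 0.999 with plates left out, cluster 2 against 3 gave 0.945 with thinning, 0.274 with at least 4 neurons and 0.00431 to 0.131 with plates left out, and cluster 5 against 1 and 4 gave 0.323 with thinning and 6.27e-06 to 0.595 with plates left out.

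*Kcnc4* in clusters 2 and 4 against 1 and 5 gave 0.00228 to 0.225 with plates left out. Between the adult plate sets its direction turned without replicate 2 (0.452 to 0.997 with plates left out). From e14.5 to p0 it turned with e14.5 clusters 1 and 2 (0.982), and from p12 to adult with thinning (0.391), e14.5 clusters 1 and 2 (0.999), all wells (0.766) and some plates left out (0.567 to 1). In p12 cluster 5 against 1 and 4 it gave 0.308 with DESeq2, 0.0665 without a filter and 0.0262 to 0.843 with plates left out. The *Kcnc4* share gave exact permutation p from 0.0286 to 0.0714 with plates left out.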

Other observations

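Wells that the study left out but that hold UMIs of at least 2000 genes also carried both genes. Their mean *Kcnc1* was 26.0 and 29.4 CPM on the p0 plates, from 70.4 to 141 CPM at p12 and from 195 to 232 CPM in the adult. Their mean *Kcnc4* was 10.9 and 5.73 CPM at p0, from 51.8 to 57.7 CPM at p12 and from 56.4 to 78.0 CPM in the adult. In 30 adult wells with fewer genes, of a median depth of 886.5 UMIs, 12 of 39316 UMIs were of *Kcnc1*, a pooled level of 305 CPM, against 266 CPM in the kept adult neurons.

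The 42 adult neurons outside the numbered clusters had shares of *Kcnc4* among the UMIs of both genes of 27.3%, 42.1%, 30.7%, 47.9% and 32.4% in replicates 1 to 5. Cluster 4 was at 29.7% and 26.9% in replicates 1 and 2, and the ranges overlap. In 9 of these 42 neurons no UMI of either gene was found, and in 4 only *Kcnc4* was.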
